A study of Mus musculus with 6 samples.

Results

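The genes described here are 46 genes that drive or carry out the cell cycle and DNA replication, taken by their symbols in the platform annotation. They were followed in RNA of full thickness wounds of mouse back skin, collected 8 days after injury, with each sample read on its own single-colour Illumina bead array, 6 in all. Of the 46 genes, 36 were measured, among the 10266 genes tested on these arrays. A gene counted as measured where a probe had a detection p-value under 0.01 on at least 2 of the 6 arrays, and its brightest such probe stood for it. Gmnn, Ccna2, Ccnb2, Ube2c, Bub1, Cenpe, Ttk and Kif20a had 1 to 3 named probes each, and none of these was detected on any array. Ccnb1 and Mki67 had no probe named in the annotation used here, so that their levels are not given and they appear below for their promoters alone. All levels below are log2 values of normalized intensity, and differences are differences of such values.

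The knockdown group held 2 arrays of wounds from tamoxifen-treated mice of 5 months that carried floxed exons 2 to 6 of β-Catenin (Ctnnb1) on both alleles together with Cre-Esr1, a Cre that tamoxifen activates to remove these exons. Its tamoxifen control held 2 arrays of tamoxifen-treated mice of 4 months with the same floxed exons 2 to 6 and no Cre named in the genotype. The stabilized group was 1 array from the age of 2 months with exon 3 floxed on both alleles, treated with Adenovirus-CRE, and loss of this exon yields a β-catenin that resists degradation. Its GFP control was 1 array from the same age of 2 months with the same floxed exon 3, treated with Adenovirus-GFP. All mice had the C57/BL6 strain background, and all changes of β-catenin were induced after the injury. Age went with genotype in the tamoxifen model, so the effects of the 2 cannot be told apart. The labels do not name the promoter that drives Cre-Esr1, and an adenovirus delivers Cre only to the cells it enters. Nothing in the labels says which cells of a wound lost or gained β-catenin.

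Each array detected 15883 to 16681 of 45281 probes. The GFP array stood at the low end of this range, and its mean intensity of 544.4 lay under the 648.7 to 714.8 of the rest. The brightest of 4 probes for Ctnnb1, the targeted gene, read 11.74 and 11.86 in the knockdown and 11.78 and 12.09 in the tamoxifen control, and 11.50 in the stabilized and 11.58 in the GFP array. This probe gave a knockdown difference of -0.13. The other 3 Ctnnb1 probes, each detected on all 6 arrays, gave knockdown differences of -0.24, 0.05 and 0.18. The same 3 probes gave stabilized minus GFP differences of -0.03, -0.70 and -0.82, so that the reading of Ctnnb1 depended on the probe. A probe outside the removed exons need not fall when they are lost, and the position of these probes was not analysed here. These values therefore do not show whether β-catenin was lowered. Samples are named biological replicates in the labels. The p-values set a difference against the spread between these few arrays, moderated by that of all genes tested. RNA came from whole wounds, so fewer cells of a type and less RNA per cell cannot be told apart in any result below.

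A dividing cell passes from G1, where cyclin D and cyclin E kinases release the E2F factors, into S phase, where a licensed origin is opened by the MCM helicase and DNA is copied on the Pcna clamp with nucleotides from ribonucleotide reductase and thymidylate synthase. It then enters mitosis under Cdk1, the Aurora kinases and Plk1, attaches its chromosomes through kinetochores watched by the Bub and Ttk checkpoint kinases, and splits by spindle motors and cytokinesis proteins. Genes of the earlier steps are known targets of E2F factors, whereas many genes of mitosis are bound late in the cycle by the MuvB complex with B-Myb and FoxM1 through a CHR element, often beside CCAAT boxes that bind NF-Y. In a healing skin wound, proliferation of keratinocytes, fibroblasts and vessel cells belongs to the phase sampled here, and Ccnd1 and Myc are known targets of β-catenin in other tissues.

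The promoters of the genes of mitosis held the CHR and CCAAT letters more often than those of the earlier steps. RefSeq promoters of the mouse assembly GRCm38.p6, from 250 bases before to 50 after the start, were at hand for 37 of the 46 genes. Aurkb, Ccna2, Ccnd1, Foxm1, Gmnn, Kif20a, Mcm4, Myc and Tpx2 had none in the table. Both strands were searched for short runs of letters. For E2F a promoter had to hold TTGGCGC. It was also counted for E2F where it held the run TTCCCGC. The same went for a promoter with the run TTCGCGC. For CHR it had to hold TTTGAA. The other form of the CHR that was counted is TTCGAA. The CCAAT box was searched as its name spells it. E2F and CCAAT matches overlapped in Ccnb1 and Mcm7. A CHR and a CCAAT box stood together in 17 of 23 genes of mitosis (73.9%) and in 3 of 14 genes of the earlier steps (21.4%), against 6.86% of the 8255 genes tested that have a promoter in the table and 8.61% of all 27025 genes with one. An E2F match stood in 3 of 23 genes of mitosis (13%) and in 6 of 14 of the earlier steps (42.9%), against 16.1% of the genes tested and 9.2% of all genes. A match describes letters in a 300-base window and does not show that a factor binds there.

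6 of these promoters are shown 5′ to 3′ on the strand of the gene, to let the 2 kinds of promoter be compared, with every match to the searched letters on either strand in capitals. A match on the other strand appears as its reverse complement, so that an inverted CCAAT box reads ATTGG. Cdk1, Pcna and Rrm2 are the genes of their roles with the smallest p in the knockdown comparison, and Cenpa, Top2a and Cdc6 were added after the matches were seen because they hold the letters in question. Their windows, in GRCm38.p6, are chr10:69352863-69353162 (minus strand) for Cdk1, chr5:30666636-30666935 (plus) for Cenpa, chr11:99024140-99024439 (minus) for Top2a, chr2:132253131-132253430 (minus) for Pcna, chr12:24708004-24708303 (plus) for Rrm2 and chr11:98907901-98908200 (plus) for Cdc6. Birc5 and Nusap1, which have the smallest p of their roles, held none of the searched letters and are not shown.
Cdk1: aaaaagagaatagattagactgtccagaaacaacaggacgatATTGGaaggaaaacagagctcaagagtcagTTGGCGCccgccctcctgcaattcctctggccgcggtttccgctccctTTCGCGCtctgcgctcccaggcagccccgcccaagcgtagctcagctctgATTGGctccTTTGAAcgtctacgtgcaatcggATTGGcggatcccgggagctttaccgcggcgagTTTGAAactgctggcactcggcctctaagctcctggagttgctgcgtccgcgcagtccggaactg
Cenpa: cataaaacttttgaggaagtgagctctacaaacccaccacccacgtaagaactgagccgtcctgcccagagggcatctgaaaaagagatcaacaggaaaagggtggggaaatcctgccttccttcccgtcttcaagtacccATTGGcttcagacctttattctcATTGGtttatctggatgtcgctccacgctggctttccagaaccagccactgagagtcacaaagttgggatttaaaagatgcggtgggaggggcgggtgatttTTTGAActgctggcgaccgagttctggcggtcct
Top2a: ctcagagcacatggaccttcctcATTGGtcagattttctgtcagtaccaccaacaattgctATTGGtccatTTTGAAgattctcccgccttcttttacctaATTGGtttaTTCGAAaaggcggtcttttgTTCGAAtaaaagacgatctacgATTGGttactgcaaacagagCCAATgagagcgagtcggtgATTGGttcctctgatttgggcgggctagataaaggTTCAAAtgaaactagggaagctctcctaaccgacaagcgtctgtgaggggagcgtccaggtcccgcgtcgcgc
Pcna: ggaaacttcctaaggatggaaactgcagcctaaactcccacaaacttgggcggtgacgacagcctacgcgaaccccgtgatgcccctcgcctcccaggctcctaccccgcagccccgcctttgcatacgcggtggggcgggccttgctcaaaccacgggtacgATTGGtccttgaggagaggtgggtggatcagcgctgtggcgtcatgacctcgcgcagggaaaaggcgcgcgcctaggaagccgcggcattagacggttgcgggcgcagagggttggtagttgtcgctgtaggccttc
Rrm2: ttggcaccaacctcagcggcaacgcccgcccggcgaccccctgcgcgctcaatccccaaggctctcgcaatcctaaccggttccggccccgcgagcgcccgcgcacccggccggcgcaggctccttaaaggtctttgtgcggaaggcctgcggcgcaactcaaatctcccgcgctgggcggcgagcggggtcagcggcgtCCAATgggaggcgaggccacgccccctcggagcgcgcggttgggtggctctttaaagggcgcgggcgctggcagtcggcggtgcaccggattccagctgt
Cdc6: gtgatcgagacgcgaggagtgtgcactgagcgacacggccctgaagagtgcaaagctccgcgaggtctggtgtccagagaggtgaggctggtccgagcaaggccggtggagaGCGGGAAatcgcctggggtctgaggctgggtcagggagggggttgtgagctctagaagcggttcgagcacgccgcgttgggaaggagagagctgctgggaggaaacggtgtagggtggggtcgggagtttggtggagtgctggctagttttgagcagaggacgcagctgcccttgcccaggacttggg
The Cdk1 window holds all 3 kinds of letters, with CHR matches and inverted CCAAT boxes alternating before the start. Top2a carries a row of inverted CCAAT boxes among its CHR matches, and Cenpa has a pair of inverted CCAAT boxes and 1 CHR match close to the start. Pcna and Rrm2 hold a CCAAT box each and none of the E2F or CHR letters, and Cdc6 holds an E2F match alone.

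In the knockdown, 33 of the 36 measured genes had a lower mean than in the tamoxifen control, and none passed the test. Their median difference was -0.31, whereas the median over all genes tested was 0.02 and 46.7% of them had a mean below the control. The knockdown comparison asked what less β-catenin goes with, by limma over all genes (2 residual degrees of freedom, two-sided, Benjamini-Hochberg). At an adjusted p of 0.05, 0 of the 36 genes were called, where 0% of the 10266 genes were. At an unadjusted p under 0.05 there were again 0 of the 36, although 10.6% of all genes lay there, and 4.40% as lower ones. Only Ccnd1, Ccne1 and Kif23 had a higher mean in the knockdown. The largest difference belonged to Cdk1, at -0.63 ± 0.30 (SE, n = 2 arrays per group).

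The spread between replicate arrays was larger than this difference. Relative to each gene's mean over the 6 arrays, the median of the 36 genes stood at 0.05 and -0.53 on the knockdown arrays and at 0.35 and -0.19 on the tamoxifen control arrays. The 2 groups therefore overlapped, with knockdown replicate 1 above tamoxifen control replicate 2. Each knockdown array had a lower median than the control array of the same number, but the labels do not pair these arrays. The pooled SD of this median between replicate arrays was 0.40. Replicate 1 was above replicate 2 in 33 of the 36 genes in the knockdown, against 49.9% of all genes. In the tamoxifen control it was above in 35 of the 36, against 51.8% of all genes. Tamoxifen control replicate 1 was the highest of the 4 tamoxifen arrays in 33 of the 36 genes, against 28.2% of all genes, and knockdown replicate 2 was the lowest in 31, against 25.4%. Both held in 29 genes, against 12.1% of all genes, and in these, except Cdk1 and Foxm1, knockdown replicate 1 lay above tamoxifen control replicate 2. Groups did not overlap, with both knockdown arrays below both control arrays, in Pcna, Cdk1 and Foxm1, which is 3 of 36 where 18.8% of all genes did so.

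These same arrays set the size of the group difference. Without knockdown replicate 2 the median difference was -0.07 with 25 genes lower, and without tamoxifen control replicate 1 it was -0.04 with 22 lower. Without knockdown replicate 1 it was -0.59 with 35 lower, and without tamoxifen control replicate 2 it was -0.59 with 35 lower.

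**Figure D1:**
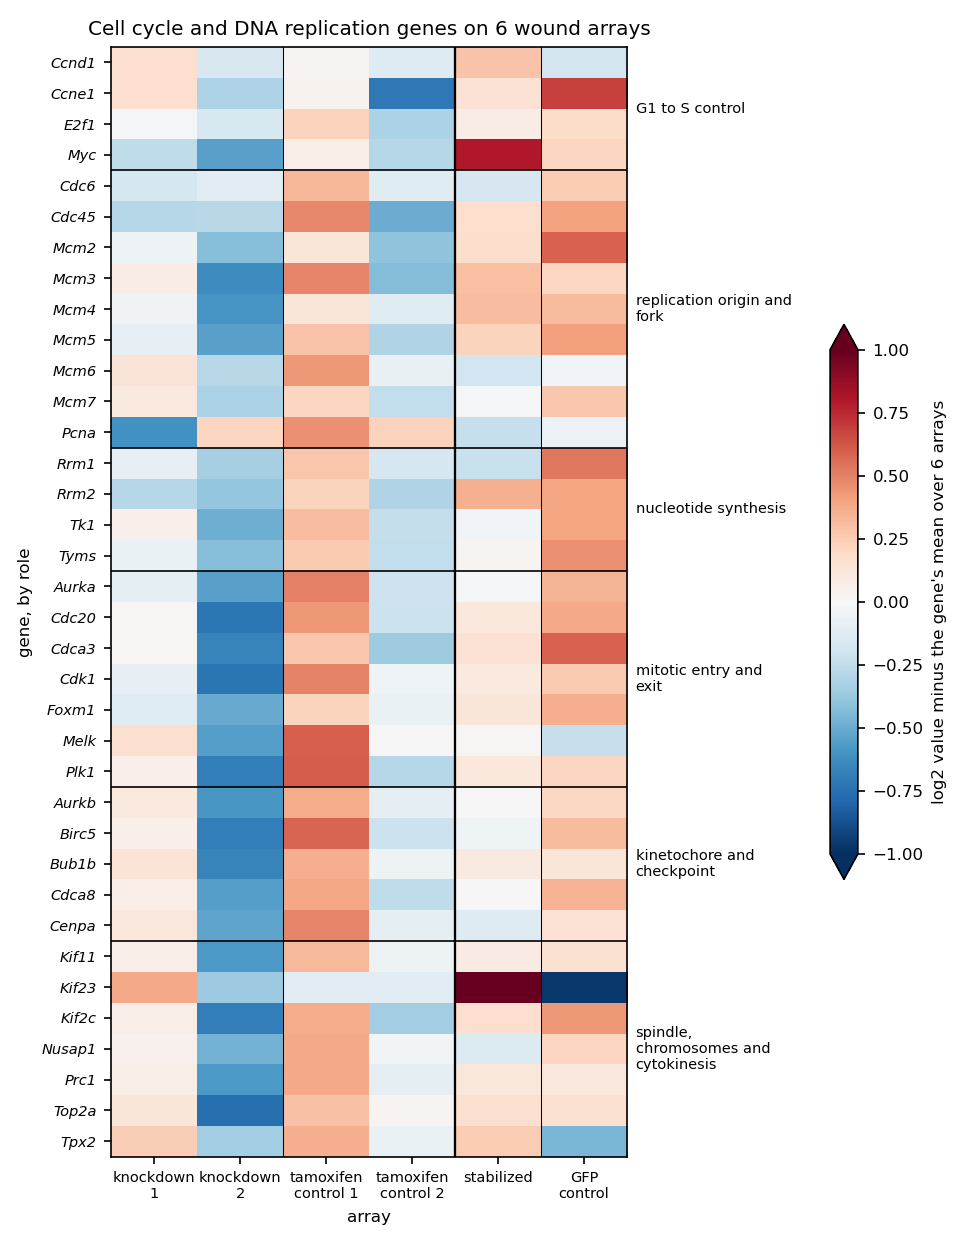
Each row is 1 of the 36 measured genes, ordered by role, and each column 1 array; colour gives the log2 value minus the gene's mean over the 6 arrays, cut at -1 and 1. Knockdown replicate 2 is the bluest column and tamoxifen control replicate 1 the reddest of the 4 tamoxifen arrays, while Kif23 stands apart in the stabilized and GFP columns.

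**Figure D2:**
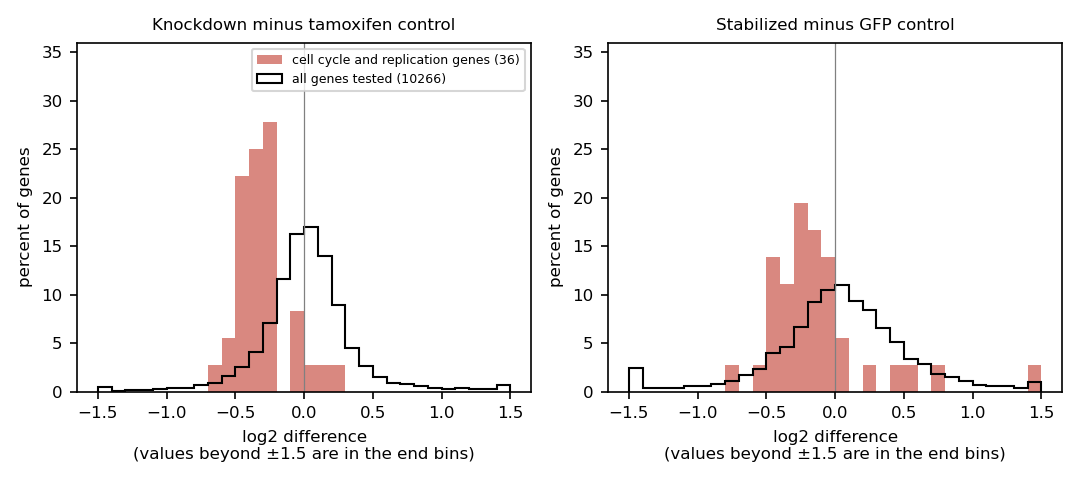
Filled bars give the percent of the 36 genes, and the outline the percent of all 10266 genes tested, by log2 difference, in the knockdown against its control (left) and the stabilized against the GFP array (right), with values beyond 1.5 in the end bins. Most of the 36 genes lie below 0 at left (33 genes); at right 29 lie below 0 with quantile normalization, but 3 do when arrays are centred on their medians.

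In the single pair of adenovirus arrays, 29 of the 36 genes were lower in the stabilized than in the GFP array with quantile normalization, against 45.7% of all genes, but 3 of 36 were when each array was centred on its own median. The comparison asked what more β-catenin goes with, and with 1 array in each group there is no test. The median difference of the 36 genes was -0.20, beside 0.04 for all genes tested. Centring on array medians put it at 0.36 and moved the median of all genes to 0.57, so that 26 of the 36 genes changed sign. Relative to the median of all genes, the 36 genes stood at -0.23 with quantile normalization, with 30 of them below it, and at -0.21 with median centring, with 29 below it. Ccnd1, Ccne1, Myc, Cdc6, Mcm3, Rrm1, Melk, Kif23, Top2a and Tpx2 kept their sign under both. Only Kif23 was at least 2-fold apart with quantile normalization, higher in the stabilized array. Of all genes, 3.21% were at least 2-fold higher there and 4.22% at least 2-fold lower. The Kif23 value is that of its brightest probe, while its other passing probes were lower in the stabilized array, at -0.27 and -0.37.

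A trend was fitted across all 6 arrays, with a term for the model system and with β-catenin coded as -1 for the knockdown, 1 for the stabilized group and 0 for either control. It gave a slope above 0 in 31 of the 36 genes, against 50% of all genes. With the quantile normalization used here the model systems did not run alike, as 29 of the 36 genes were lower in the stabilized array. The median slope was 0.18, beside 0.00 over all genes, and 0 of the 36 passed (limma), where 0% of all genes passed. Again 0 of the 36 lay at an unadjusted p under 0.05, against 10.6% of all genes. Centring arrays on their medians moved the median slope of all genes to 0.13, and the 36 genes then stood at 0.33, with 35 above 0. The trend rested on the same arrays as the knockdown comparison. Without knockdown replicate 2, 16 slopes lay above 0 with a median of -0.02, and without tamoxifen control replicate 1, 14 did with a median of -0.04.

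Among the genes of G1 and S phase entry, the knockdown showed no common direction. Their median difference was 0.00 over 4 genes, with 2 lower and 2 higher. Ccnd1, cyclin D1, which activates the kinases of G1, read 11.79 and 11.46 in the knockdown, against 11.65 and 11.50 in the tamoxifen control, and 11.91 in the stabilized array, against 11.44 in the GFP array. The tamoxifen groups overlapped fully, and the stabilized array was the highest of the 6. The knockdown differed by 0.05 ± 0.17 (SE; limma, adjusted p = 0.931), and the stabilized array by 0.47, or 1.38-fold. Its other 2 probes differed in the same directions, by 0.05 and 0.02 in the knockdown and by 0.41 and 0.18 in the stabilized array.

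Myc, a transcription factor that promotes cell growth and division, read 5.91 and 5.62 in the knockdown, against 6.23 and 5.88 in the tamoxifen control. It was detected on neither knockdown array and on only 1 of the 2 control arrays. The groups overlapped, with knockdown replicate 1 above tamoxifen control replicate 2, so that no fold is given (limma, adjusted p = 0.655). In the stabilized array Myc read 6.96, against 6.38 in the GFP array, a difference of 0.58, or 1.5-fold. The stabilized array was again the highest of the 6, and its trend had the smallest p of the 36 genes (limma, adjusted p = 0.487), although it was detected on only 3 of the 6 arrays, so that its slope is not given. Ccne1, cyclin E1, which acts at S phase entry, differed by 0.27 ± 0.31 in the knockdown and by -0.54 in the stabilized array. E2f1, the transcription factor of S phase genes, differed by -0.04 ± 0.22 in the knockdown and by -0.11 in the stabilized array.

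All 9 measured genes of the replication origin and fork had a lower mean in the knockdown, at a median of -0.27, and none passed. Pcna, the sliding clamp that holds the polymerase on DNA and whose promoter is shown above, read 5.84 and 6.66 in the knockdown, against 6.90 and 6.68 in the tamoxifen control. Both knockdown arrays lay below both controls, although knockdown replicate 2 and tamoxifen control replicate 2 were nearly level. It was not detected on knockdown replicate 1, which was its lowest array, unlike most other genes here. The difference was -0.54 ± 0.30 (limma, adjusted p = 0.591). Pcna read 6.22 in the stabilized and 6.39 in the GFP array, a difference of -0.17.

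Cdc6, which loads the MCM helicase at origins, read 6.38 and 6.44 in the knockdown, against 6.90 and 6.44 in the tamoxifen control. Only tamoxifen control replicate 1 stood apart from the other 3 arrays, and the difference was -0.26 ± 0.19 (limma, adjusted p = 0.693). Cdc6 read 6.39 in the stabilized array, against 6.81 in the GFP array, a difference of -0.42. Cdc45, which joins the helicase to make it active, differed by -0.27 ± 0.34 in the knockdown and by -0.24 in the stabilized array. The 6 subunits of the helicase, Mcm2 to Mcm7, differed by -0.32 (Mcm4) to -0.09 (Mcm7) in the knockdown, with Mcm3 at -0.31, Mcm5 at -0.30, Mcm6 at -0.25 and Mcm2 at -0.10. In each of the 6 subunits the order of the tamoxifen arrays was the same, with tamoxifen control replicate 1 on top, then knockdown replicate 1, tamoxifen control replicate 2 and knockdown replicate 2. In the stabilized array they spread from -0.41 (Mcm2) to 0.09 (Mcm3).

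The 4 genes of nucleotide synthesis were lower on average in the knockdown by a similar amount, at a median of -0.26. Rrm2, the small subunit of ribonucleotide reductase, read 7.70 and 7.60 in the knockdown, against 8.21 and 7.69 in the tamoxifen control. Knockdown replicate 1 lay above tamoxifen control replicate 2, so the groups overlapped, and the difference was -0.30 ± 0.21 (limma, adjusted p = 0.676). It read 8.34 in the stabilized and 8.38 in the GFP array, a difference of -0.04. Rrm1, the large subunit, read 9.49 and 9.24 in the knockdown, against 9.85 and 9.41 in the tamoxifen control, a difference of -0.26 ± 0.20 (limma, adjusted p = 0.701). Here too knockdown replicate 1 lay above tamoxifen control replicate 2. Rrm1 read 9.35 in the stabilized array, against 10.10 in the GFP array, which was the highest of the 6, a difference of -0.76 or 1.69-fold lower. A further Rrm1 probe, also detected on all 6 arrays, read 9.58 in the stabilized and 9.69 in the GFP array, a difference of only -0.11, while in the knockdown both probes differed by -0.26. Tk1, thymidine kinase, and Tyms, thymidylate synthase, differed by -0.25 ± 0.28 and -0.25 ± 0.24 in the knockdown and by -0.42 and -0.43 in the stabilized array.

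The 7 measured genes of mitotic entry and exit were all lower on average in the knockdown, at a median of -0.47, and none passed. Cdk1, the kinase that starts mitosis, read 9.05 and 8.39 in the knockdown, against 9.62 and 9.09 in the tamoxifen control. The groups did not overlap, but knockdown replicate 1 lay only just under tamoxifen control replicate 2. Its difference of -0.63 ± 0.30, or 1.55-fold lower, had the smallest p of the 36 genes (limma, adjusted p = 0.546). Cdk1 read 9.23 in the stabilized and 9.39 in the GFP array, a difference of -0.16.

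Melk, a kinase found mostly in dividing cells, read 6.38 and 5.67 in the knockdown, against 6.82 and 6.22 in the tamoxifen control. It was not detected on knockdown replicate 2, and the groups overlapped, with a difference of -0.50 ± 0.32 (limma, adjusted p = 0.642). The stabilized array read 6.24, while on the GFP array, at 5.99, it was not detected, which makes it at least 1.06-fold higher in the stabilized array. Cdca3, known for its part in entry into mitosis, read 9.93 and 9.25 in the knockdown, against 10.18 and 9.55 in the tamoxifen control, a difference of -0.28 ± 0.32 (limma, adjusted p = 0.793). Its groups overlapped. In the stabilized array it read 10.06, against 10.50 in the GFP array, a difference of -0.44.

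In the other genes of this role, too, tamoxifen control replicate 1 was the highest of the 4 tamoxifen arrays and knockdown replicate 2 the lowest. Cdc20, which activates the anaphase-promoting complex, differed by -0.47 ± 0.34 in the knockdown and by -0.27 in the stabilized array. Plk1 and Aurka, kinases of the centrosome and spindle, differed by -0.48 ± 0.39 and -0.46 ± 0.30 in the knockdown and by -0.11 and -0.36 in the stabilized array. Foxm1, a transcription factor of genes of late G2 and mitosis, differed by -0.39 ± 0.20 in the knockdown, with no overlap, and by -0.24 in the stabilized array. The cyclin partners of Cdk1 (Ccna2, Ccnb1 and Ccnb2) and the ubiquitin carrier Ube2c gave no value, as described above.

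The 5 measured genes of the kinetochore and checkpoint had a median of -0.41 in the knockdown, all 5 lower and none past the test. Birc5, survivin, which belongs to the chromosomal passenger complex, read 10.02 and 9.27 in the knockdown, against 10.54 and 9.75 in the tamoxifen control. The 2 replicates of each group lay further apart than the group means, and the difference was -0.51 ± 0.37 (limma, adjusted p = 0.683). It read 9.91 in the stabilized and 10.28 in the GFP array, a difference of -0.36. Bub1b, a checkpoint protein that holds back anaphase, read 9.14 and 8.34 in the knockdown, against 9.37 and 8.95 in the tamoxifen control. Only knockdown replicate 2 stood apart from the other 3 arrays, and the difference was -0.42 ± 0.31 (limma, adjusted p = 0.69). Bub1b read 9.09 in the stabilized array and 9.12 in the GFP array.

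Aurkb and Cdca8 (borealin), partners of Birc5 in the passenger complex, differed by -0.39 ± 0.29 and -0.31 ± 0.31 in the knockdown and by -0.21 and -0.35 in the stabilized array. Cenpa, the histone that marks the centromere, differed by -0.41 ± 0.30 in the knockdown and by -0.28 in the stabilized array. The checkpoint kinases Bub1 and Ttk and the kinetochore motor Cenpe were not detected on any array.

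The 7 measured genes of the spindle, chromosomes and cytokinesis had a median of -0.39 in the knockdown, with 6 lower. Nusap1, which binds spindle microtubules, read 9.08 and 8.57 in the knockdown, against 9.42 and 9.02 in the tamoxifen control. Knockdown replicate 1 lay just above tamoxifen control replicate 2, and the difference was -0.39 ± 0.24 (limma, adjusted p = 0.634). It read 8.91 in the stabilized and 9.25 in the GFP array, a difference of -0.35. Tpx2, which brings Aurka to the spindle, read 6.49 and 5.90 in the knockdown, against 6.61 and 6.19 in the tamoxifen control, a difference of -0.20 ± 0.26 (limma, adjusted p = 0.821). It was not detected on knockdown replicate 2 or on the GFP array. In the stabilized array it read 6.51, against 5.79 in the GFP array, so that it was at least 1.27-fold higher in the stabilized array.

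Top2a, the topoisomerase that untangles sister chromatids, differed by -0.47 ± 0.32 in the knockdown and by 0.0042 in the stabilized array. Prc1, which bundles the microtubules of the midzone, differed by -0.40 ± 0.28 in the knockdown and by -0.0013 in the stabilized array. Kif11, the motor that separates the spindle poles, differed by -0.39 ± 0.27 in the knockdown and by -0.07 in the stabilized array. Kif2c, which shortens microtubules at centromeres, differed by -0.33 ± 0.36 in the knockdown and by -0.27 in the stabilized array. Among the 19 genes of the 3 mitotic roles 18 were lower in the knockdown, at a median of -0.40, beside 15 of 17 at a median of -0.26 in the 3 earlier roles, and the difference between these medians was not tested. Genes of mitosis with both CHR and CCAAT letters (12 measured) had a median of -0.41, and the 4 measured with a promoter but without both had -0.44.

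**Figure D3:**
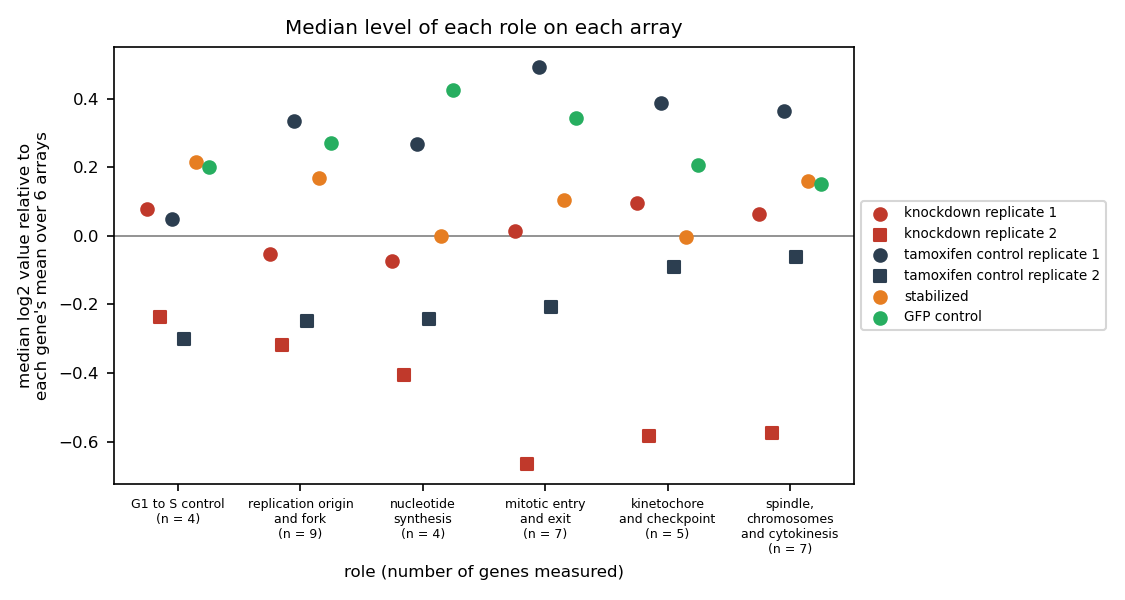
Points give the median, over the genes of a role, of the log2 value relative to each gene's mean over 6 arrays, with 1 point per array, circles for replicate 1 and squares for replicate 2. In the 3 mitotic roles knockdown replicate 2 lies between -0.67 and -0.58 and tamoxifen control replicate 1 between 0.37 and 0.49, while the other replicates of both groups lie between -0.21 and 0.09.

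**Figure D4:**
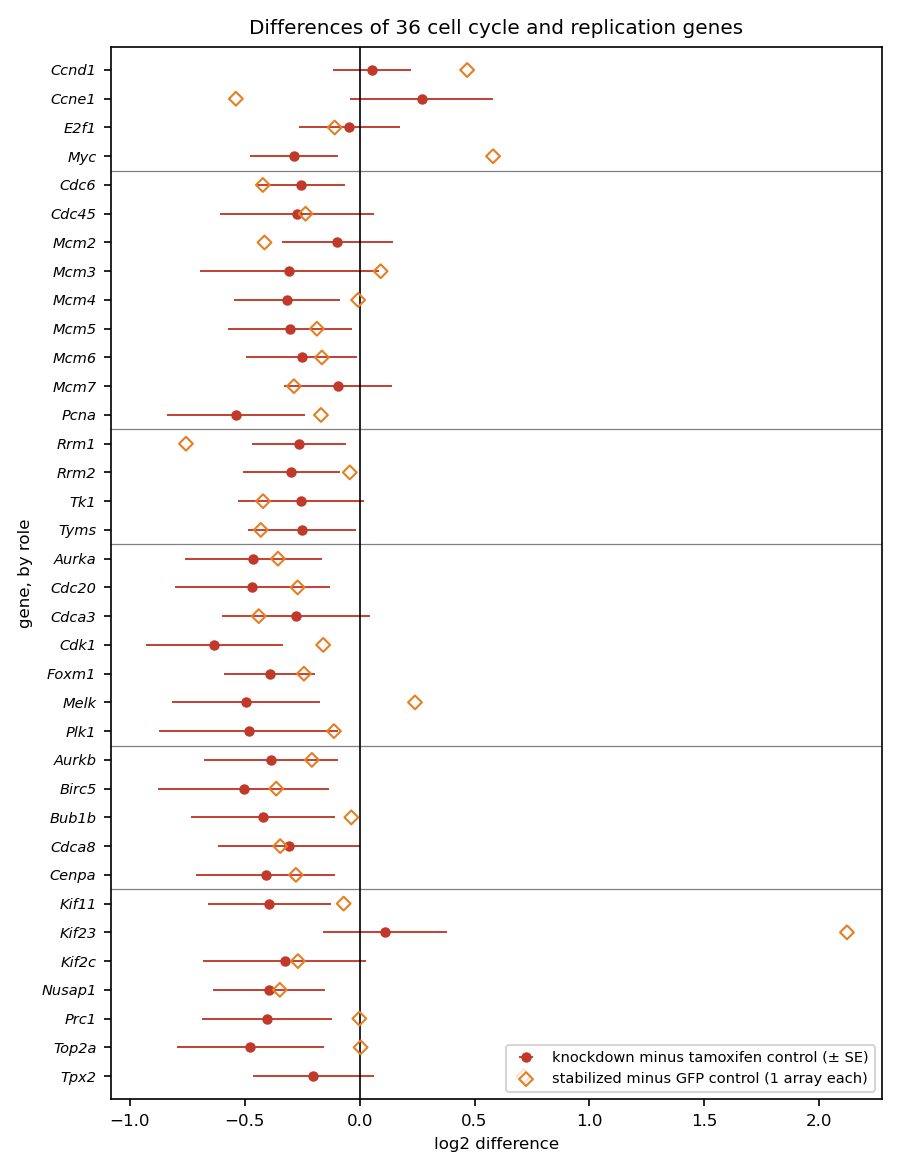
Filled points give the knockdown minus tamoxifen control difference of each of the 36 genes on the log2 scale, with bars of 1 SE (n = 2 arrays per group), and open diamonds the stabilized minus GFP difference of 1 array each, which has no error. The filled points lie between -0.63 (Cdk1) and 0.27 (Ccne1), and the diamond of Kif23 lies at 2.12.

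Kif23, a motor of the central spindle, was read differently by its probes. Its brightest probe read 13.95 and 13.20 in the knockdown, against 13.46 and 13.46 in the tamoxifen control, and 14.72 in the stabilized array, against 12.60 in the GFP array. The 4 tamoxifen arrays overlapped (0.11 ± 0.27; limma, adjusted p = 0.911), whereas the adenovirus arrays were the highest and the lowest of the 6, 2.12 apart or 4.35-fold. A second probe read 9.91 and 9.10 in the knockdown, against 10.29 and 9.79 in the tamoxifen control, and 7.38 in the stabilized array, against 7.65 in the GFP array. It was thus lower on both adenovirus arrays than on any tamoxifen array. Another probe read 8.34 and 7.24 in the knockdown, against 8.44 and 8.01 in the tamoxifen control, and 7.69 in the stabilized array, against 8.07 in the GFP array. Both of these were lower on average in the knockdown (-0.53 and -0.43) and lower in the stabilized array (-0.27 and -0.37). Which probe reads Kif23 RNA was not tested, and without this gene 33 of 35 genes were lower in the knockdown (median -0.31) and 29 of 35 in the stabilized array with quantile normalization (median -0.21).

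Mcm6 and Rrm2 also had a probe that went its own way. Another Mcm6 probe read 8.77 and 8.79 in the knockdown and 8.96 and 8.59 in the tamoxifen control, but 4.69 in the stabilized and 4.93 in the GFP array, where it was not detected. The brightest Mcm6 probe read 8.77 to 9.47 over all 6 arrays, and a further probe, detected on all 6, read 8.76 to 9.13. The gap between the model systems was thus seen in 1 Mcm6 probe and not in these. For Rrm2, a further probe read 7.68 and 6.87 in the knockdown, against 7.21 and 6.88 in the tamoxifen control, and 8.09 in the stabilized array, against 6.85 in the GFP array. It thus differed by 0.23 and 1.23, where the brightest probe differed by -0.30 and -0.04. In all, 15 of the 36 genes had several passing probes, whose signs were the same in 12 of them for the knockdown and in 11 for the stabilized array. Of the 21 further probes, 17 were lower on average in the knockdown (median -0.37) and 16 in the stabilized array (median -0.27).

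**Figure D5:**
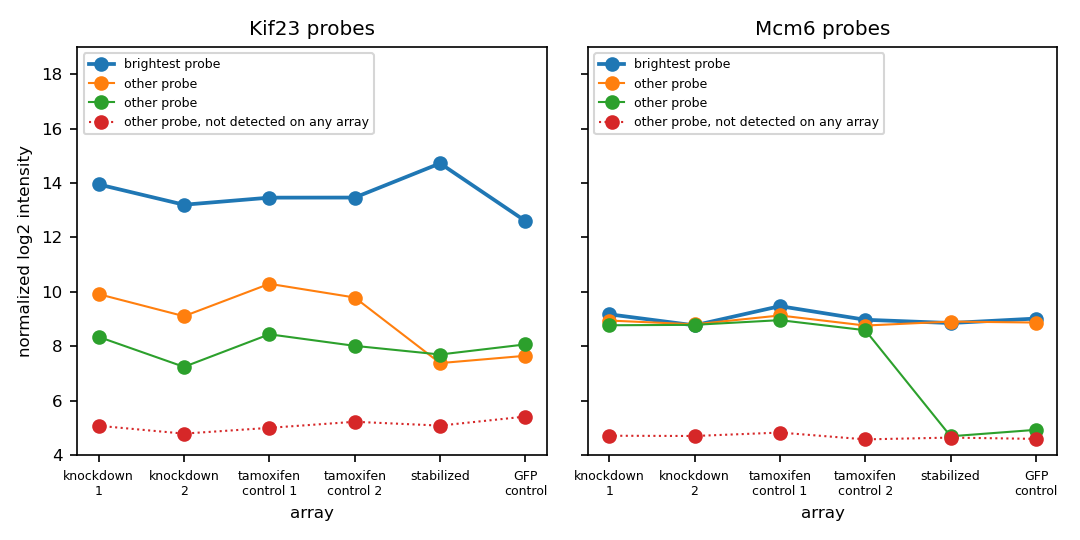
Lines join the normalized log2 intensity of each named probe of Kif23 (left) and Mcm6 (right) across the 6 arrays, with the brightest probe drawn thicker and a probe detected on no array dotted. The brightest Kif23 probe peaks at 14.72 in the stabilized array while its other detected probes do not, and 1 Mcm6 probe drops to 4.69 and 4.93 on the adenovirus arrays.

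Genes of the same pathway outside the 46 were described by 4 further lists, in which 0 of 69 measured genes passed in either test (limma). Their stabilized and GFP values come from 1 array each with quantile normalization, and their values under median centring are not given. At an unadjusted p under 0.05 there were 3 of the 69 in the knockdown, all lower, and 2 in the trend, against 10.6% of all genes in each. Knockdown and tamoxifen control arrays did not overlap in 10 of the 69 with the knockdown lower, against 18.8% of all genes. They did not overlap in 6 with the knockdown higher, against 24.8% of all genes. CDK inhibitors and pocket proteins, which hold cells in G1, were higher on average in the knockdown in 7 of 9 cases, at a median of 0.07. Cdkn1c (p57) read 12.74 and 12.61 in the knockdown, against 11.63 and 12.46 in the tamoxifen control, with no overlap (0.63 ± 0.30; limma, adjusted p = 0.547). Cdkn2b (p15), with the smallest p of its list in the trend, had a slope of -0.42 ± 0.19 per step (limma, adjusted p = 0.517). Cdkn1b (p27) differed by 0.53 in the stabilized array.

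Other cyclins, CDKs and E2Fs were lower in 8 of 12 cases, at a median of -0.09. E2f4, an E2F that acts mostly as a repressor, read 7.67 and 7.90 in the knockdown, against 8.16 and 8.20 in the tamoxifen control, with no overlap (-0.39 ± 0.15; limma, adjusted p = 0.455). E2f3, an activator, had a trend slope of 0.29 ± 0.11 per step (limma, adjusted p = 0.45). E2f2, another activator, differed by -1.12 in the stabilized array and was at least 2-fold lower there.

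Other replication genes were lower in 13 of 21 cases, at a median of -0.12. Pole, the leading strand polymerase, was detected on neither knockdown array (5.88 and 5.53, against 6.32 and 6.07 in the tamoxifen control) and was at least 1.14-fold lower there (limma, adjusted p = 0.455). Dut, which removes dUTP, had a trend slope of -0.22 ± 0.11 per step (limma, adjusted p = 0.534). Rfc3, of the clamp loader, was not detected on the GFP array and was at least 1.01-fold higher in the stabilized array.

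Other mitosis genes were lower on average in the knockdown in 27 of 27 cases, at a median of -0.29, and none passed. Anln, anillin of the cleavage furrow, read 9.49 and 9.06 in the knockdown, against 10.11 and 9.68 in the tamoxifen control, with no overlap (-0.62 ± 0.23; limma, adjusted p = 0.453). Smc4, of condensin, had the smallest p of its list in the trend (limma, adjusted p = 0.445), but it was detected on only 3 of the 6 arrays. It was not detected on the GFP array and was at least 1.11-fold higher in the stabilized array, and its slope is not given. Dlgap5, a spindle protein, was not detected in the stabilized array (5.82, against 7.37 in the GFP array) and was at least 2.65-fold lower there. The replicate pattern was the same as in the 36 genes, with tamoxifen control replicate 1 highest and knockdown replicate 2 lowest in 23 of the 27 genes, against 12.1% of all genes.

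Markers of cell types were summed on the same arrays with quantile normalization, and their part in the results above was not tested. None of the markers passed in the knockdown, where the smallest adjusted p was 0.191 (limma). At an unadjusted p under 0.05 lay 8 of 13 keratinocyte markers (lower), 11 of 12 muscle markers (higher), 4 of 5 T and B cell markers (higher) and 1 each of the fibroblast, neutrophil and red cell markers (lower), against 10.6% of all genes. Krt5, Krt14, Krt71, Col1a1 and Ckm, which define keratinocytes, the hair follicle, fibroblasts and muscle, were detected on all 6 arrays. Basal and wound edge keratinocyte markers were lower on average in the knockdown in 12 of 13 cases. Their summed intensities were 140155 to 153347 in the knockdown, against 199258 to 225016 in the tamoxifen control, with no overlap, and 217646 in the stabilized array, against 213768 in the GFP array. The defining keratins did not follow alike, with Krt5 at -0.39 ± 0.20 and Krt14 at 0.02 ± 0.14 in the knockdown. Most of the fall in the sum came from the bright keratins Krt6b, Krt16 and Krt17, which differed by -1.65, -0.88 and -0.61. Trp63 and Col17a1 differed by -0.23 and -0.33. Unlike the cell cycle genes, the keratinocyte sum kept replicates of a group together and separated the groups.

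Skeletal muscle markers were higher in 12 of 12 cases, with sums of 79047 to 110724 in the knockdown, against 31922 to 48072 in the tamoxifen control, and 13311 in the stabilized array, against 49490 in the GFP array. Ckm, creatine kinase of muscle, differed by 1.60 ± 0.38 in the knockdown. Markers of T and B cells were higher in 5 of 5 cases (1324 to 1374 in the knockdown, against 648 to 715 in the tamoxifen control). Hair follicle markers were lower on average in the knockdown in 7 of 7 cases, with Krt71 at -1.92 ± 1.20. Their sums overlapped widely between groups (2397 to 8632 in the knockdown, against 5135 to 40420 in the tamoxifen control). Red cell precursor markers were lower in 3 of 3 cases. Hba-a1 differed by -0.21 ± 0.50 and Alas2 by -0.50 ± 0.44, and Slc4a1 was detected on only 2 arrays. Their sum, almost all of it from Hba-a1, was highest on tamoxifen control replicate 1 (24883 to 25700 in the knockdown, against 17609 to 49534 in the tamoxifen control).

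Fibroblast markers were lower in 6 of 8 cases in the knockdown (84558 to 114229, against 100008 to 109216 in the tamoxifen control), with Col1a1 at -0.27 ± 0.29, and their sum was 144913 in the stabilized array, against 101902 in the GFP array. Neutrophil markers were lower in 4 of 6 cases in the knockdown. They summed to 61762 to 69427 there, against 78461 to 84636 in the tamoxifen control, and to 79240 in the stabilized array, against 120255 in the GFP array. This sum came mostly from S100a8 and S100a9, by far the brightest of the list, at -0.47 ± 0.13 and -0.10 ± 0.16 in the knockdown. Csf3r and Cxcr2 differed by -0.02 and -0.33, and Ltf and Trem1 by 0.38 and 0.47. Macrophage markers (7 genes) summed to 42945 to 49781 in the knockdown, against 42851 to 52573 in the tamoxifen control. Endothelial markers (6 genes) summed to 4215 to 4548 in the knockdown, against 4679 to 4774 in the tamoxifen control. Of the 4 tamoxifen arrays, tamoxifen control replicate 1, where most cell cycle genes were highest, also had the highest keratinocyte, macrophage, endothelial and red cell sums. Knockdown replicate 2, where most were lowest, also had the lowest keratinocyte, hair follicle and fibroblast sums. Other sums did not follow this order. The macrophage, T and B cell and red cell sums were lowest on tamoxifen control replicate 2, and the endothelial and neutrophil sums on knockdown replicate 1. The hair follicle and neutrophil sums were highest on tamoxifen control replicate 2. By their median relative to each gene's mean, keratinocyte markers were level on knockdown replicates 1 and 2 (-0.54 and -0.52). The skeletal muscle sum ran the other way on these arrays, highest on knockdown replicate 2 (110724, against 79047 on knockdown replicate 1) and lowest on tamoxifen control replicate 1 (31922, against 48072 on tamoxifen control replicate 2).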

How the data were processed

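RNA of whole wounds was read on 6 arrays. The authors deposited a table with an average bead intensity and a detection p-value for each of 45281 probes, per the file headers, and a second table of log2 values of the same arrays, made with R 2.14 and limma per the submitters' processing notes. Scanning, background correction and offset are not given in the sources used here. The deposited log2 columns had medians of 5.12, ranked probes as the intensities did (Spearman correlation 1) and differed by at most 0.101 from the values computed here.

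Intensities were corrected by the normal-exponential model with detection p-values (neqc in limma 3.58.1, R 4.3.3), an offset of 16 was added, and log2 values were quantile-normalized over the 6 arrays, which removes shifts common to most genes; the offset shrinks differences of dim probes. Of the probes, 34885 had 1 gene in the platform annotation, 18 several and 10378 none; 34807 matched RefSeq genes of GRCm38.p6 by their Entrez numbers. Detection at a p-value under 0.01 on at least 2 arrays left 17410 probes and, with the brightest probe per gene, 10266 genes. The knockdown test used lmFit and eBayes over the means of 4 groups (2 residual and 2.90 prior degrees of freedom). The trend coded groups -1, 0 and 1 with a model system term, which assumes equal and opposite steps. The adenovirus pair, 1 array each, has no test, and a gene was called there at 2-fold. Folds given as "at least" compare the detected group's mean with, on each array of the other group, whichever is higher of the lowest detected value and the probe's own. Marker sums add linear normalized intensities. The precision is limited by the number of arrays, and no slide or scan day was given, so no batch could be tested.

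The genes, their roles, the further lists and the tests were chosen with earlier results of these data known. Values on every array are given for Ccnd1, Myc, Cdk1, Pcna and, of each role, the genes with the smallest p in the knockdown, the smallest p in the trend and the largest difference in the pair; of each further list the same 3 were named; Mcm6 and Rrm2 probes were singled out after their values were seen. The steps were tested on simulated data. Alternatives changed the offset, background, normalization, filter, probe choice and variance prior, used the authors' log2 values, left out single arrays or added a replicate block. Replicate numbers carry no shared litter or day in the labels, so same-numbered arrays were not treated as pairs. Their deviations had a correlation of 0.04 over all 10266 genes tested. In most of the 36 genes, replicate 1 was above replicate 2 in both groups. The correlation cannot show whether same-numbered arrays shared a factor in these genes.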

Additional observations from a re-analysis of the deposited data

How the results depend on the processing

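Small differences could not be called with so few arrays, and the GFP array, with the fewest detected probes, stands for its group alone. Under the alternatives that kept all arrays, 0 genes passed in the knockdown, and the median of the 36 genes stayed between -0.31 and -0.24. Of the 36 genes 32 to 34 were lower, with the fewest under median centring, as were 29 of 31 detected on all arrays and 37 of 44 without a filter. With the replicate block 0 genes passed, with the median at -0.31 and 33 lower, as without it. The trend passed 186 genes with arrays centred on their medians and 99 without the model system term, against 0, and none of the 36 in either; the cause was not tested.

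In the adenovirus pair, centring on array medians put the median of the 36 genes at 0.36 with 3 lower, with 234 genes at least 2-fold lower and 1476 at least 2-fold higher, and 2 of the 36 at least 2-fold apart, against 433, 330 and 1. Genes at least 2-fold higher numbered 184 with an offset of 50, 95 without background correction (223 lower) and 177 with detection on all 6 arrays. With the mean of all probes of a gene, 0 of the 36 were 2-fold apart. Leaving out 1 array at a time, the knockdown median ranged from -0.59 to -0.04, the genes past the threshold from 0 to 3, the number of slopes above 0 from 14 to 34 and the median slope from -0.04 to 0.28.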
